A study of Homo sapiens with 59 samples.

Results

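H3K4me3 inside the genes MAP4K3 and EEF1G was followed in NCI-H661 cells, a human line established from a large cell carcinoma of the lung. They are 2 of the 20007 protein-coding genes annotated on hg38, and each was taken as its gene body with 10 kb on either side. The members were chosen by measured values, because an H3K4me3 region inside each gene held far fewer counted reads after doxycycline than after water in cells with a hairpin against DPPA4. That difference is therefore given below as a description with no test, and the members are tested only in lines, marks and treatments that the choice did not use. The H2AK119ub lists of shDPPA4 are not fully apart from it, because they share inputs with the H3K4me3 lists that made the choice.

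The series holds ChIP-Rx-seq, that is, chromatin immunoprecipitation in which mouse chromatin is spiked in for scaling. NCI-H661 cells expressing both DPPA2 and DPPA4 carried a tetracycline-inducible miR30 hairpin against DPPA2 (shDPPA2), against DPPA4 (shDPPA4) or against both (shDPPA2+4), and were kept for 7 days with doxycycline at 2 µg/ml (DOX) or with water (H2O). Each line and treatment was profiled for H3K4me3 (replicates 1 and 2), and for H2AK119ub and H3K27me3 (replicates 1 and 3). Parental cells were exposed for 1 day to DMSO or to 10 µM A-485, which blocks the acetyltransferase activity of p300 and CBP, and were profiled for H3K27ac, H2AK119ub, H3K27me3 and, in DMSO, SUZ12.

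The 3 hairpin lines were sorted, polyclonal transposon populations, and the double line was derived from the shDPPA2 line. ChIP of a line with a non-targeting hairpin was not analysed here, so the action of doxycycline and that of the knockdown cannot be told apart. RNA levels of DPPA2 and DPPA4 were not analysed here either. Replicates are numbered in the labels and called biological by the study, and p-values measure only the spread between these libraries. In bulk samples, fewer marked cells and less mark per cell cannot be told apart.

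Of the 59 samples, 51 had a list of called peaks, each with its ChIP reads, the reads of a matched input and the fold between them. The 12 H3K4me3 libraries held from 8394879 to 19379794 ChIP reads in peaks past the fold filter described below. Promoters of the epithelial genes KRT8, KRT18, EPCAM and CDH1, of the lung genes NKX2-1 and SFTPC, of VIM and of DPPA2 and DPPA4 carried H3K4me3 in 12 of 12 libraries. Those of the blood genes PTPRC and CD3E and of the endothelial genes PECAM1 and CDH5 carried it in 0 of 12.

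MAP4K3 encodes a serine/threonine kinase of the germinal centre kinase family that acts upstream of the JNK cascade and in the signalling of amino acids to mTORC1. EEF1G encodes the gamma subunit of translation elongation factor 1, which holds together the complex that reloads eEF1A with GTP. H3K4me3 is deposited by SET1 and MLL methyltransferases and is densest around the start sites of active genes, most of all in CpG islands. Weaker domains also occur inside genes, often at alternative start sites or enhancers.

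MAP4K3 lies on the minus strand at chr2:39249266-39437301 (hg38). Its intragenic H3K4me3 interval, chr2:39407801-39413900, lay wholly within intron 1 of 33 in transcript ENST00000263881.8, and its nearer edge was 23401 bp downstream of the start site. The interval therefore touched no exon or UTR. EEF1G also lies on the minus strand, at chr11:62559596-62574086. Its interval, chr11:62559201-62563600, began 10486 bp downstream of the start site of ENST00000329251.5 and lay at the opposite end of the gene. It spanned exons 8, 9 and 10 of 10 and introns 7, 8 and 9, with 3146 of its bases in intron 7, 86 in a UTR and 395 beyond the end of the gene. A second protein-coding gene model, ENSG00000255508, overlaps EEF1G on the same strand from chr11:62559603, and ChIP signal in the interval cannot be assigned to one of them.

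The neighbours within the windows were CDKL4, downstream of MAP4K3, and the divergent noncoding transcript MAP4K3-DT at its promoter. AHNAK lies downstream of EEF1G, and TUT1 and a noncoding transcript lie at its promoter. Within MAP4K3 lie a small nucleolar RNA, ENSG00000252473, and a long noncoding RNA, ENSG00000273035. Within EEF1G lies the microRNA MIR6747.

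The sequences below show what kind of DNA carried the intragenic mark at MAP4K3. The 300 bases come from the stretch that was called as an H3K4me3 peak in 12 of 12 libraries when all deposited peaks were used, and the 250 bases before the start site are given for contrast. Both are from the reference genome hg38, read 5′ to 3′ on the minus strand, with CpG dinucleotides in capitals.
MAP4K3 intragenic stretch, chr2:39411751-39412050: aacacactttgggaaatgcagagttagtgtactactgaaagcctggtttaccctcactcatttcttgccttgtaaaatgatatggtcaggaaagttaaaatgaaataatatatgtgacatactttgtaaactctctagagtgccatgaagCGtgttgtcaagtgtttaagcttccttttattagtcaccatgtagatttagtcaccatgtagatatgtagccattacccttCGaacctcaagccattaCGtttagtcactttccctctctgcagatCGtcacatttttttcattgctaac
MAP4K3 upstream of the start site, chr2:39437302-39437551: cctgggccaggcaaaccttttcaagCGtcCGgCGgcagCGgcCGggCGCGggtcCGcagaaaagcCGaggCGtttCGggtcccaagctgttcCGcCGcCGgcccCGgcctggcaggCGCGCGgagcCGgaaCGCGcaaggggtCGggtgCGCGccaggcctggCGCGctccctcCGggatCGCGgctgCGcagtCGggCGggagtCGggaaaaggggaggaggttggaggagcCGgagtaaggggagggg

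The intragenic MAP4K3 stretch held 4 CpGs in 300 bases at a GC content of 37.7%, against 34 CpGs in 250 bases at 74.4% upstream of its start site. The 250 bases before the EEF1G start site, not printed here, held 17 CpGs at 62.4% GC. Across the whole MAP4K3 interval the GC content was 36.6% with 0.656 CpGs per 100 bases, and 6.96% of the 22060 H3K4me3 regions tested had a lower CpG density. The EEF1G interval had 47.5% GC and 1.86 CpGs per 100 bases, and 22.0% of the tested regions were lower. The median region had 3.49 CpGs per 100 bases.

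The intervals also differed in how often their sequence recurs in the genome. Of all 31-base words of the MAP4K3 interval, 2.42% occurred more than once in hg38, and of those of the EEF1G interval 36.7% did. In the printed MAP4K3 stretch the share was 0%. Reads from repeated words can be placed at several positions, and their part in the EEF1G counts was not tested.

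At both genes the intragenic H3K4me3 was far weaker than that of the promoter. Its presence in 12 of 12 libraries was a condition for a region to be tested. The MAP4K3 promoter, 1500 bp on each side of the start site, was covered by peaks of 907 to 2154 ChIP reads, or 159 to 276 reads per called kb. Peaks in the MAP4K3 interval that passed the filter held 28.5 to 38.5 reads per called kb. At EEF1G the promoter peaks held 952 to 1909 reads, or 222 to 398 per called kb, and the interval peaks 27.3 to 45.1 per called kb. Relative to input, the log2 enrichment was 4.08 to 4.86 at the MAP4K3 promoter and 4.18 to 5.29 at the EEF1G promoter. In the intervals, with all deposited peaks, it was 1.02 to 2.43 at MAP4K3 and 0.877 to 2.32 at EEF1G, with the shDPPA4 DOX libraries lowest in both. The intragenic peaks thus sat nearer to the filter than those of the promoters.

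That filter keeps a peak when the log2 fold of its ChIP reads over input reads is above 1 and its FDR is under 0.05. All other peaks of a list are dropped with their reads, whole. A count past the filter can therefore change through the reads in a peak, through the length called, or through a peak crossing the threshold.

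**Figure D1:**
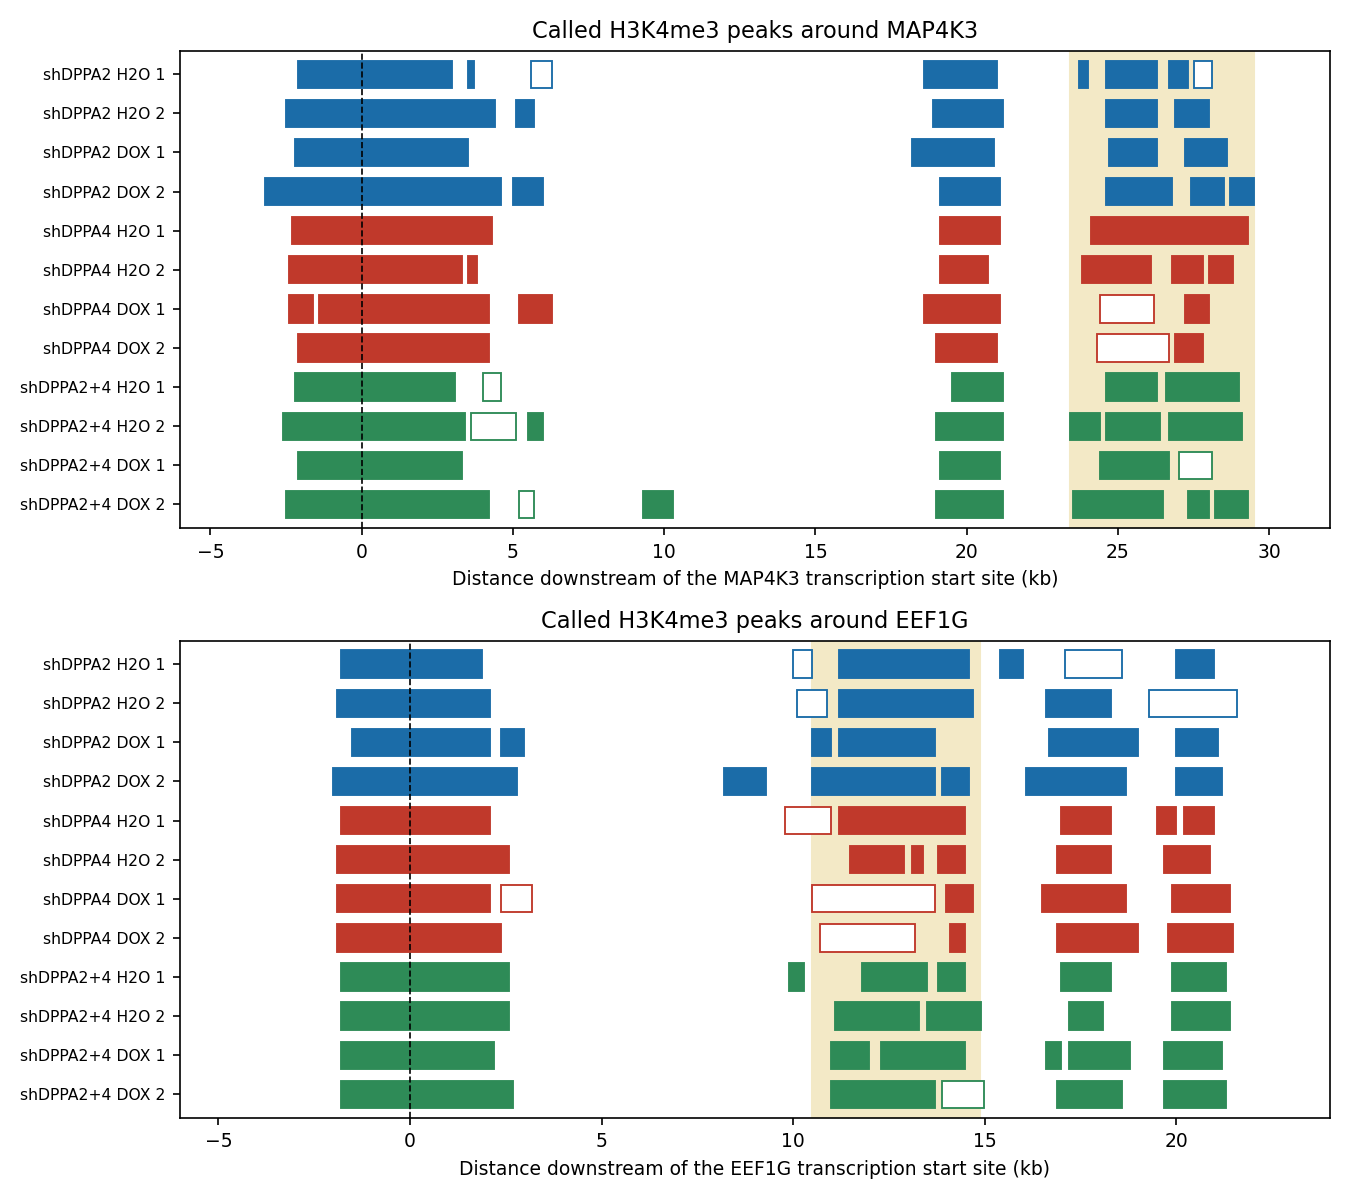
Called H3K4me3 peaks in each of the 12 libraries around MAP4K3 (top) and EEF1G (bottom), plotted by distance in kb downstream of the start site (dashed line at 0). Each horizontal lane is 1 library, filled boxes are peaks past the fold filter, open boxes are deposited peaks below it, and the shaded band is the intragenic interval. In both shDPPA4 DOX libraries the larger peak inside each band is open and only a short filled peak is left, while the promoter peaks at 0 are filled in every library.

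In shDPPA4 cells the MAP4K3 interval held 157 and 120 reads past the filter in the H2O libraries (replicates 1 and 2) and 24 and 28 in the DOX libraries. The length called past the filter was 5200 and 4100 bp with H2O and 800 and 900 bp with DOX. Both DOX libraries were thus far below both H2O libraries in reads and in length. At EEF1G the counts were 90 and 76 with H2O and 23 and 14 with DOX, over 3300 and 2400 bp against 700 and 400 bp. The groups were again apart in both measures. Among the other 10 libraries the MAP4K3 interval ranged from 77 to 184 reads past the filter and the EEF1G interval from 76 to 176.

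Expressed as the log2 fold change of DOX over H2O, with libraries scaled by TMM and the replicate number as a block, the MAP4K3 region fell by 2.91 (SE 0.25) and the EEF1G region by 2.66 (SE 0.27) in shDPPA4. Theirs were the largest differences among the regions called in this line, and the next region in size, inside FOXP2, had a difference of -2.32 (SE 0.32). In this line 8 of 22060 regions, 0.0363%, were called, that is, had an adjusted p under 0.05 with a log2 change of 0.5 or larger in either direction. These values chose the members and carry no test here.

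Reads left out of the filtered counts of the DOX libraries were still in the deposited lists. With all deposited peaks, the MAP4K3 interval held 157 and 120 reads with H2O and 95 and 99 with DOX in shDPPA4. The called length was then 2600 and 3300 bp in the DOX libraries. The EEF1G interval held 111 and 76 reads with H2O and 121 and 94 with DOX, over 3900 and 2900 bp in the DOX libraries. The DOX libraries were still the lower ones at MAP4K3, by less, and at EEF1G the treatments overlapped.

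In each shDPPA4 DOX library a single peak per gene made the difference between the filtered count and the count of all deposited peaks. At MAP4K3 it held 71 ChIP reads over 20 input reads in replicate 1, a log2 fold of 0.92, and 71 over 24 in replicate 2, a log2 fold of 0.82. At EEF1G it held 98 reads over 32 in replicate 1, a log2 fold of 0.70, and 80 over 26 in replicate 2, a log2 fold of 0.87. All 4 peaks were thus below the fold threshold of 1, none by more than 0.3 on the log2 scale.

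**Figure D2:**
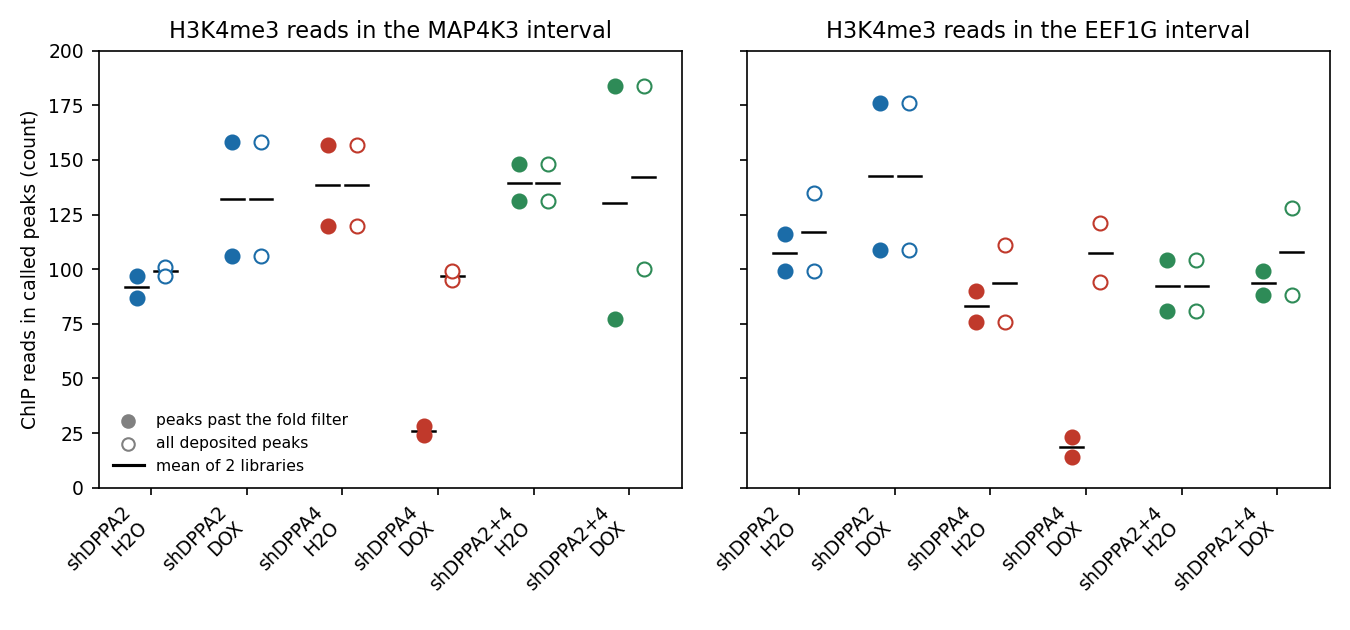
H3K4me3 ChIP reads (count) in called peaks of the MAP4K3 interval (left) and the EEF1G interval (right) for each line and treatment, 2 libraries per group. Filled points count peaks past the fold filter, open points all deposited peaks, and bars are the mean of 2 libraries. The filled shDPPA4 DOX points, 24 and 28 at MAP4K3 and 23 and 14 at EEF1G, lie below all other filled points, while the open points of the same libraries lie between 94 and 121.

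Counting all deposited peaks gave a shDPPA4 difference of -1.01 (SE 0.18) for the MAP4K3 region and -0.29 (SE 0.19) for the EEF1G region. With the called length entered as an offset, so that reads per called base were compared, the differences were -0.46 (SE 0.25) and -0.30 (SE 0.29). No region of the line was then called by edgeR under either way of counting, with 2051 and 1828 regions at an unadjusted p under 0.05. Before scaling for depth, ChIP reads per called kb in the peaks that passed the filter were 30 and 31.1 in the DOX libraries and 30.2 and 29.3 in the H2O libraries at MAP4K3. At EEF1G they were 32.9 and 35.0 with DOX and 27.3 and 31.7 with H2O. The DOX libraries were the deeper ones, with 11157528 and 13687766 reads in the tested regions against 8977233 and 8636126.

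**Figure D3:**
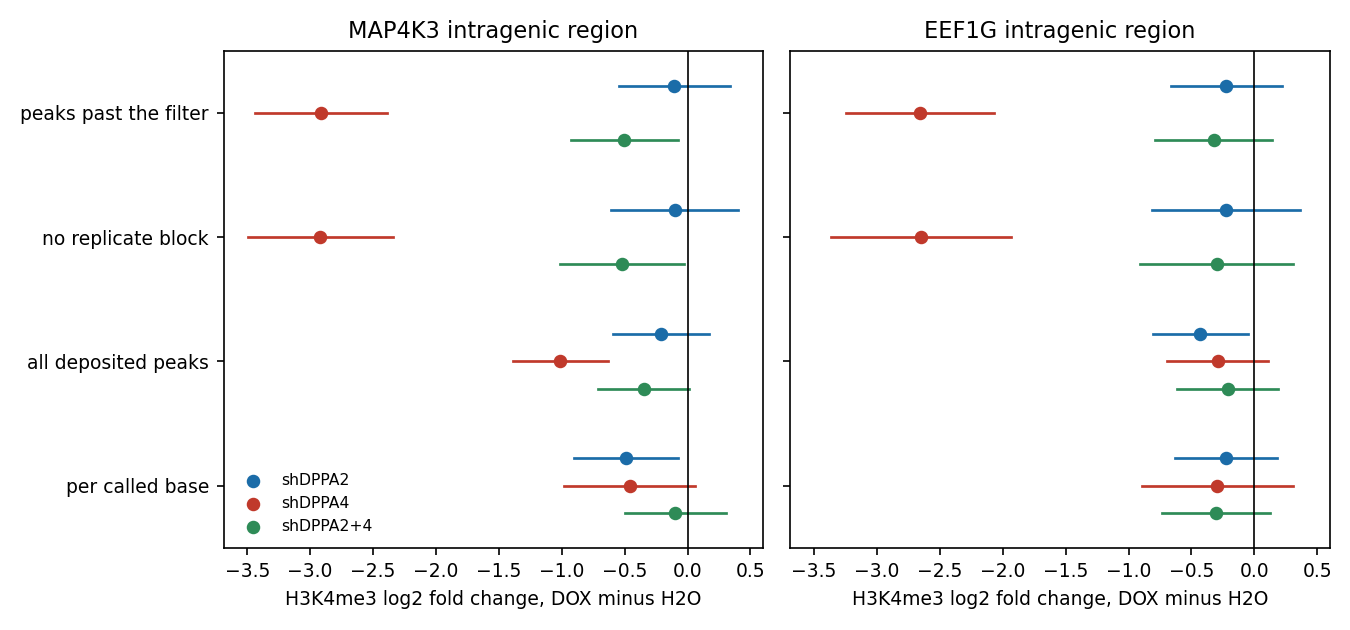
H3K4me3 log2 fold change, DOX minus H2O, of the MAP4K3 (left) and EEF1G (right) intragenic regions in each line under 4 ways of counting. Points are the fitted differences and lines their 95% intervals, with 0 marked; the shDPPA4 values chose the members and are shown as a description. The shDPPA4 points lie at -2.91 and -2.66 with peaks past the filter and between -1.01 and -0.29 with all deposited peaks or per called base, while the points of the other lines stay within 0.6 of 0.

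The other 6 regions called in shDPPA4 are given side by side with the members, again as values of the contrast that chose them. With peaks past the filter and then with all deposited peaks, the log2 differences were -2.32 and -0.30 inside FOXP2, -1.18 and -0.34 at a region 150079 bp from PRKD1, and -0.90 and -0.63 inside DLG2. They were -0.88 and -0.49 inside HMCN1, -0.57 and -0.36 at a region 231218 bp from NDST3, and -0.55 and -0.55 inside POC1B. Members included, 8 of 8 were lower with DOX, and 7 of 8 lay nearer to 0 by more than 0.01 with all deposited peaks. The region inside POC1B, whose reads were the same in both counts, did not move. In 6 of 8, both DOX libraries had a shorter called length than both H2O libraries.

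The fold of a peak also depends on its input, and the input in both intervals was higher in shDPPA4 DOX than elsewhere. Relative to the mean input density of all peaks in the same list, the MAP4K3 interval had an input density of 1.41 and 1.42 in the shDPPA4 DOX lists. In the other 10 lists it was 0.726 to 1.27. At EEF1G it was 1.44 and 1.5 in shDPPA4 DOX and 0.849 to 1.39 elsewhere. The promoters did not share this at MAP4K3, where the shDPPA4 DOX values of 0.971 and 0.895 lay within the 0.804 to 1.12 of the other libraries, but at EEF1G they were 1.48 and 1.39 against 0.721 to 1.29.

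The agreement between replicates in input is not independent. In 6 of 6 pairs of H3K4me3 lists from 1 line and treatment, the input counts were equal at all 1136 to 1322 peak borders that the lists shared. Both shDPPA4 DOX lists were therefore called against the same input library, so its higher density at both genes was measured once. Lists of other marks shared these inputs. Input was equal at every shared border in 91 of 91 pairs of lists from 1 line and treatment, H3K27ac replicate 4 aside. The part of the input in the differences at the members was not tested.

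**Figure D4:**
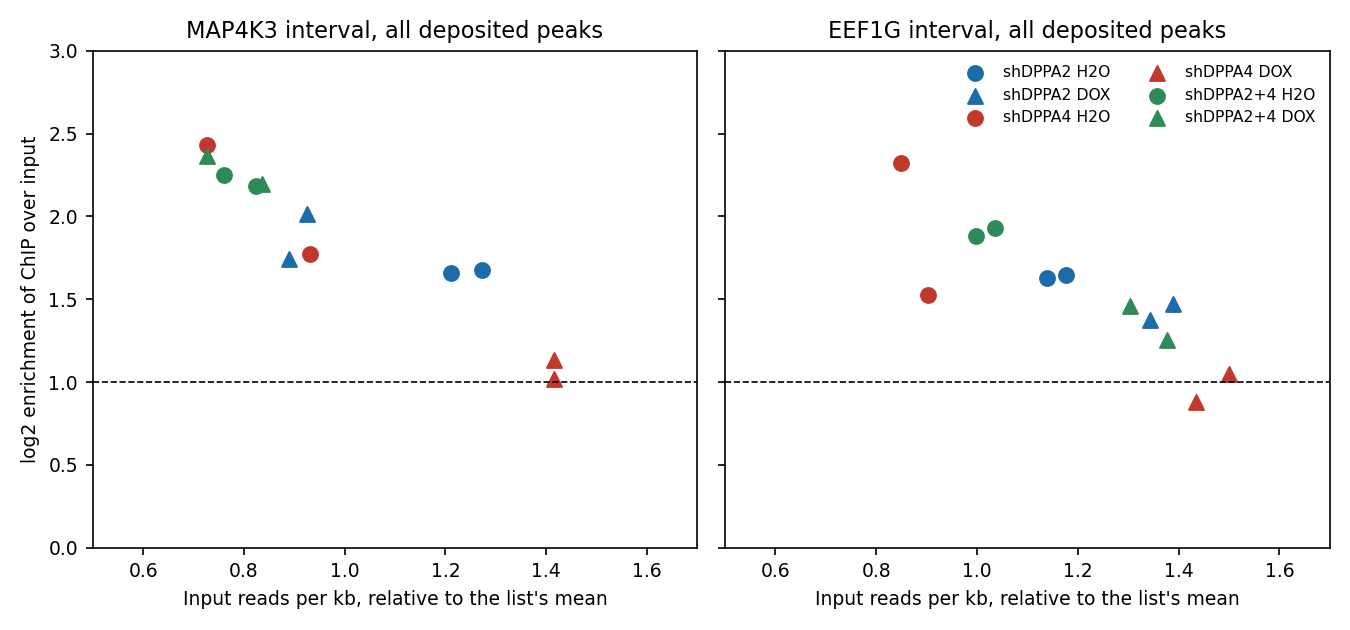
Log2 enrichment of ChIP over input (vertical) against input reads per kb relative to the mean of the list (horizontal) in the MAP4K3 (left) and EEF1G (right) intervals, all deposited peaks, with 1 point per H3K4me3 library. Colours give the line, circles H2O, triangles DOX, and the dashed line marks a log2 enrichment of 1. The shDPPA4 DOX triangles lie farthest right, at 1.41 to 1.5, and lowest, at 0.877 to 1.13.

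In shDPPA2 cells, which the choice did not use, the MAP4K3 interval held 87 and 97 reads past the filter with H2O and 106 and 158 with DOX. The called lengths were 2600 and 2800 bp with H2O and 3000 and 4100 bp with DOX. At EEF1G the counts were 99 and 116 with H2O and 109 and 176 with DOX. The DOX counts were the higher ones at MAP4K3 and overlapped at EEF1G, before library size was taken into account.

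After scaling, the shDPPA2 difference was -0.10 on the log2 scale (SE 0.21, 95% interval -0.55 to 0.34) for the MAP4K3 region and -0.22 (SE 0.21, -0.66 to 0.22) for the EEF1G region. The adjusted p-values of edgeR's quasi-likelihood test over all 22060 regions were 0.856 and 0.653. In this line 6 regions, 0.0272%, were called, and neither member was among them.

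In the double line the MAP4K3 interval held 131 and 148 reads past the filter with H2O and 77 and 184 with DOX. At EEF1G the counts were 81 and 104 with H2O and 88 and 99 with DOX. The 2 DOX libraries stood apart from each other at MAP4K3, and 1 deposited peak of replicate 1 was dropped by the filter there: with all deposited peaks it held 100 reads over 3400 bp in place of 77 over 2300 bp. The treatments overlapped at both genes.

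The fitted shDPPA2+4 difference was -0.50 (SE 0.20, 95% interval -0.93 to -0.08) for the MAP4K3 region and -0.32 (SE 0.22, -0.79 to 0.14) for the EEF1G region. The adjusted p-values of the same edgeR test were 0.382 and 0.613. No region of the line was called (0%), although 2458 had an unadjusted p under 0.05, and 0 were called by DESeq2. The MAP4K3 value was -0.19 without DOX replicate 1 and -0.94 without DOX replicate 2. Set against shDPPA2, the double line differed by -0.40 (SE 0.29) at MAP4K3 and by -0.10 (SE 0.30) at EEF1G, both with an adjusted p of 1.00. Its lesser fall than in shDPPA4 involves the contrast that chose the members and was not tested.

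The other H3K4me3 regions tested in the windows had shDPPA4 differences between -0.08 and 0.08. A second domain in intron 1 of MAP4K3, chr2:39416101-39419100, lay nearer to the promoter. It held 67 to 134 reads past the filter in 12 of 12 libraries, a condition for any tested region. Its log2 difference was -0.55 (SE 0.19, adjusted p = 0.239 in edgeR) in shDPPA2, 0.04 (SE 0.20) in shDPPA4 and 0.06 (SE 0.20, adjusted p = 0.937 in edgeR) in shDPPA2+4. The region at the MAP4K3 promoter, chr2:39432701-39440500, had differences of -0.07, -0.05 and 0.06 in the same order. The region at the 3′ end of the window, at the promoter of CDKL4, held 448 to 1074 reads with differences of 0.00, 0.08 and 0.02.

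The EEF1G promoter region, chr11:62571101-62576100, had differences of -0.14 (SE 0.05), -0.08 (SE 0.05) and -0.10 (SE 0.05) in shDPPA2, shDPPA4 and shDPPA2+4. The adjusted p-values in edgeR were 0.247 for shDPPA2 and 0.487 for shDPPA2+4. Beyond the end of EEF1G, towards AHNAK, domains at chr11:62552601-62554600 and chr11:62555101-62558000 were each called past the filter in 11 of 12 libraries, with up to 71 and 108 reads. They were not tested because they lacked a peak in 1 library, and both were called in shDPPA4 DOX replicates 1 and 2.

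Over the whole gene windows, which sum all peaks with their midpoint in the gene body or its flanks of 10 kb, the promoters outweighed the intervals. The MAP4K3 window held 1576 to 3537 H3K4me3 reads past the filter and the EEF1G window 1096 to 2287. The log2 differences for MAP4K3 were -0.07 (SE 0.05) in shDPPA2, -0.10 (SE 0.05) in shDPPA4 and 0.01 (SE 0.05) in shDPPA2+4. For EEF1G they were -0.08 (SE 0.05), -0.16 (SE 0.05) and -0.11 (SE 0.05). Adjusted p-values in edgeR over 16070 windows were 0.437 and 0.450 in shDPPA2 and 0.98 and 0.448 in shDPPA2+4 for MAP4K3 and EEF1G. Of all windows, 1 (0.00622%), 5 (0.0311%) and 4 (0.0249%) were called in shDPPA2, shDPPA4 and shDPPA2+4. The members were not among those of shDPPA2 and shDPPA2+4.

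The called H3K4me3 length of the whole windows was compared over the 4 pairs of shDPPA2 and shDPPA2+4 libraries with an exact two-sided sign-flip permutation test. At MAP4K3 it was 650 bp longer with DOX (SD 2317, longer in 3 of 4 pairs, exact permutation p = 0.625, adjusted p = 0.938). At EEF1G it was 1800 bp longer (SD 1885, longer in 4 of 4 pairs), with an exact permutation p = 0.125, the smallest that 4 pairs allow, and an adjusted p of 0.375. The design could not reach 0.05. Called length was not scaled for depth, and in each pair the DOX library was the deeper one. With all deposited peaks EEF1G was 800 bp longer with DOX (longer in 3 of 4 pairs). With a log2 fold above 2 it was 50 bp longer (longer in 2 of 4 pairs). At MAP4K3 these values were 200 and 175 bp. The part of depth was not tested. These pairs are not independent either, because replicates of 1 line and treatment share an input and the double line came from the shDPPA2 line.

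Other genes of the pathways of the members were taken from lists, and the members themselves were left out of the counts. Of all windows, 16.1%, 7.41% and 11.2% had an unadjusted p under 0.05 for H3K4me3 in shDPPA2, shDPPA4 and shDPPA2+4. Of the MAP4K family (MAP4K1, MAP4K2, MAP4K4, MAP4K5, TNIK and MINK1, kinases related to MAP4K3), 6 of 6 windows were tested and 0 were called by edgeR in any line, with 0, 0 and 0 at an unadjusted p under 0.05. Their median log2 difference was -0.00059 in shDPPA2, -0.01 in shDPPA4 and -0.02 in shDPPA2+4, beside 0.00 over all windows in each. Single values lay between -0.13, for MAP4K1 in shDPPA2, and 0.10, for MAP4K4 in shDPPA2. Of the JNK cascade list 15 of 15 and of the list of amino acid signalling to mTORC1 17 of 17 were tested, again with 0 called in each line and at most 3 at an unadjusted p under 0.05, and with medians from -0.04 to 0.01.

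The translation elongation list held the eEF1 subunits, their partner VARS1, the cytosolic factors EEF2, its kinase EEF2K and EIF5A, and the mitochondrial factors TSFM, TUFM and GFM1. Without EEF1G, 12 of 12 windows were tested and 0 were called by edgeR. At an unadjusted p under 0.05 there were 4, 1 and 2 (33.3%, 8.33% and 16.7%), beside the shares of all windows given above. The median differences were -0.07, -0.06 and -0.05 in shDPPA2, shDPPA4 and shDPPA2+4. EEF1A1, the GTP-binding subunit that delivers aminoacyl-tRNA, had -0.14 (SE 0.04), -0.11 (SE 0.04) and -0.12 (SE 0.04). EEF1B2, the exchange subunit beta, had -0.17 (SE 0.06), -0.06 (SE 0.06) and -0.14 (SE 0.06). EEF1D, the exchange subunit delta, had -0.02 (SE 0.13), -0.22 (SE 0.13) and 0.14 (SE 0.13). EEF1G, at -0.08, -0.16 and -0.11, lay within the range of EEF1A1, EEF1B2 and EEF1D in each line. Over the list without EEF1G, single values in shDPPA2 ran from -0.18, for EEF2K, to 0.07, for the subunit EEF1A2.

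The pattern over all 12 H3K4me3 libraries is described by Pearson's r of log2 CPM between each member region and the 22059 other regions. The choice of both members for low counts in shDPPA4 DOX enters these values. The region most like that of MAP4K3 was that of EEF1G, with r = 0.896 over 12 libraries, but over the 10 libraries other than shDPPA4 DOX their r was -0.0987. Regions inside VSTM2A (0.821), near CDIN1 (0.818), inside PXYLP1 (0.812) and inside MAGEF1 (0.805) followed. Most like that of EEF1G were a region near CLDN23 (0.926), regions inside FOXP2 (0.90) and LIN28B (0.898), that of MAP4K3 (0.896) and a region inside CDK18 (0.891). The 12 points share lines, inputs and the filter, the shDPPA4 DOX libraries are the lowest of all at both members, and no p is given.

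H2AK119ub is the monoubiquitin mark that PRC1 places on histone H2A, and H3K27me3 is the methyl mark that PRC2 places on histone H3. The 12 H2AK119ub libraries of the hairpin lines held from 1330926 to 4136521 reads in filtered peaks. The DOX libraries of replicate 3 stood apart in depth, with a ChIP total 3.07 to 3.52 times that of the input against 1.40 to 2.89 in the other 9.

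No H2AK119ub peak lay in the MAP4K3 interval in any of the 12 libraries, with or without the filter. The EEF1G interval held filtered H2AK119ub peaks in all H2O libraries. Their called length was 1000 and 300 bp in shDPPA2 (replicates 1 and 3), 3400 and 1100 bp in shDPPA4 and 2400 and 600 bp in shDPPA2+4, with 13 to 97 reads. With DOX the length was 600 bp, with 27 reads, in shDPPA4 replicate 1 and 0 bp in the other 5 libraries.

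All 6 pairs were thus lower with DOX, from a mean of 1467 bp to a mean of 100 bp (SD of the difference 1005). The exact two-sided sign-flip test gave p = 0.0312, the smallest that 6 pairs allow, and an adjusted p of 0.188 over 6 comparisons. No lower adjusted p could be reached. The other comparisons had few or no called bases or, for H3K4me3, too few pairs. The 6 pairs are not independent, because replicates of 1 line and treatment share an input and the double line came from the shDPPA2 line. The exact p assumes that they are. The interval was set in place of the whole window after the data were seen. The shDPPA4 pairs were called against the inputs of the H3K4me3 lists that chose the members, so they are not independent of the choice. As with H3K4me3, the filter bore on the values: with all deposited peaks the DOX libraries of replicate 1 held 4000 bp in shDPPA2, 600 bp in shDPPA4 and 2200 bp in shDPPA2+4, the pairs were lower in 5 of 6, and the exact sign-flip p was 0.531. In the DOX libraries of replicate 3, which stood apart in depth, the interval held 0 bp with or without the filter.

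Over the whole windows, H2AK119ub reads past the filter at MAP4K3 were 43 and 83 in shDPPA2 H2O (replicates 1 and 3), 153 and 59 in shDPPA4 H2O and 167 and 55 in shDPPA2+4 H2O. With DOX they were 86 and 0, 71 and 0, and 94 and 43 in the same order. These reads lay at the MAP4K3 promoter and at the promoter of CDKL4, and the lowest DOX library of each line was replicate 3. The log2 differences were -2.79 (SE 2.48), -2.17 (SE 2.34) and -0.83 (SE 2.08) in shDPPA2, shDPPA4 and shDPPA2+4, with adjusted p-values of 0.646, 0.959 and 1.00 in edgeR. Without DOX replicate 3 the difference was -0.69 in shDPPA4.

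At EEF1G the window held 130 and 160 H2AK119ub reads in shDPPA2 H2O, 982 and 129 in shDPPA4 H2O and 427 and 70 in shDPPA2+4 H2O. With DOX it held 356 and 64, 244 and 83, and 261 and 99. The shDPPA4 H2O value of 982 contained a peak of 758 reads, chr11:62542101-62557300, that lay mostly over AHNAK with its midpoint just inside the window. The differences were -0.77 (SE 0.59), -1.28 (SE 0.58) and -0.29 (SE 0.58), with adjusted p-values of 0.623, 0.927 and 1.00 in edgeR. Of 15131 windows tested, 2 (0.0132%) were called in shDPPA2, 0 (0%) in shDPPA4 and 0 (0%) in shDPPA2+4. At an unadjusted p under 0.05 there were 1453 in shDPPA2, 609 in shDPPA4 and 243 in shDPPA2+4 (9.60%, 4.02% and 1.61%), and DESeq2 called 751, 172 and 66, with neither member among those it called. Without DOX replicate 1 edgeR called 944 in shDPPA2.

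The called H2AK119ub length of the windows was lower with DOX in 5 of 6 pairs at MAP4K3, with means of 1383 bp with DOX and 2750 bp with H2O (SD of the difference 1678, exact two-sided sign-flip permutation p = 0.0938, adjusted p = 0.375). At EEF1G it was lower in 4 of 6 pairs, with means of 5252 and 7387 bp (SD of the difference 6169, exact permutation p = 0.469, adjusted p = 0.938). Neither passed the test, and its pairs were not independent, as described above for the interval. An adjusted p under 0.05 could not be reached here. Of the 6 comparisons adjusted together, those of H3K27me3 had almost no called bases. Those of H3K4me3 could not go below an exact permutation p of 0.125. Among the other genes of the lists, 0 windows of the MAP4K family, the JNK cascade, amino acid signalling or translation elongation were called for H2AK119ub by edgeR in any line, with at most 2 per list and line at an unadjusted p under 0.05. The 2 were in the MAP4K family in shDPPA2, 33.3% of 6 windows tested, beside the 9.60% of all windows.

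H3K27me3 was called nowhere in the MAP4K3 window in any of the 12 hairpin libraries. In the EEF1G window it was called once, as a peak of 100 bp with 11 reads in shDPPA4 DOX replicate 1. Neither window reached the count needed for a test. SUZ12, a subunit of PRC2, had no peak in either window in the DMSO library. That single library held 510507 reads in filtered peaks, with a ChIP total 0.436 times that of its input. Weak binding could be missed at this depth.

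In parental cells H3K27ac, the acetyl mark placed by p300 and CBP, was read in peaks of 4 libraries with 603895 to 5647079 reads in filtered peaks. At the MAP4K3 promoter it was 156 and 130 reads with DMSO (replicates 2 and 4) and 56 and 13 with A-485. At the EEF1G promoter it was 270 and 276 with DMSO and 52 and 72 with A-485. Both promoters were lower in both A-485 libraries before scaling, but the DMSO libraries were deeper, with 2709073 and 5647079 reads in filtered peaks against 780375 and 603895. Per 100000 of these reads, the MAP4K3 promoter held 5.76 and 2.30 with DMSO and 7.18 and 2.15 with A-485, and the EEF1G promoter 9.97 and 4.89 with DMSO and 6.66 and 11.9 with A-485. The treatments then overlapped at both promoters.

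The intragenic intervals carried H3K27ac as well. The MAP4K3 interval held 43 and 0 reads with DMSO and 0 and 0 with A-485. The EEF1G interval held 69 and 60 reads with DMSO and 7 and 0 with A-485. A 0 here means that no peak was called. Per 100000 reads in filtered peaks, the EEF1G interval held 2.55 and 1.06 with DMSO and 0.897 and 0 with A-485, so the lower DMSO library and the higher A-485 library lay close together. At MAP4K3 only DMSO replicate 2 had a peak.

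Over the whole windows, H3K27ac at MAP4K3 was 278 and 311 reads with DMSO and 56 and 13 with A-485. At EEF1G it was 657 and 749 with DMSO and 84 and 131 with A-485. After TMM scaling, which removes a shift shared by most windows, the log2 difference was -0.90 (SE 0.65, 95% interval -2.49 to 0.69) at MAP4K3 and -0.21 (SE 0.54, -1.53 to 1.11) at EEF1G. The median over all windows was -0.47. Both adjusted p-values in edgeR were 0.978, and 0 of 15984 windows (0%) were called, with 677 at an unadjusted p under 0.05 and 193 called by DESeq2. That edgeR fit had 1 residual degree of freedom, so the 0 called do not show that A-485 had no effect. A global fall in H3K27ac is not visible on this scale, because the mouse reference reads were not used here.

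The input assigned to H3K27ac replicate 4 limits these values. By their input counts, both replicate 4 lists match the input of the other treatment. Either their inputs were crossed, or the lists themselves were exchanged, and these cannot be told apart here. With crossed inputs, their filtered peaks rest on a crossed pair. With exchanged lists, the DMSO and A-485 values of replicate 4 given above would be reversed. In the parental lines no H2AK119ub peak lay in either interval. The EEF1G window held 13 to 20 filtered H2AK119ub reads per library, with a difference of 0.31 (SE 3.69) between A-485 and DMSO, and of -0.40 without DMSO replicate 3. The MAP4K3 window had filtered H2AK119ub peaks of 13 and 19 reads in the DMSO libraries (replicates 3 and 4) and no called peak in the A-485 libraries, too few reads for a test.

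**Figure D5:**
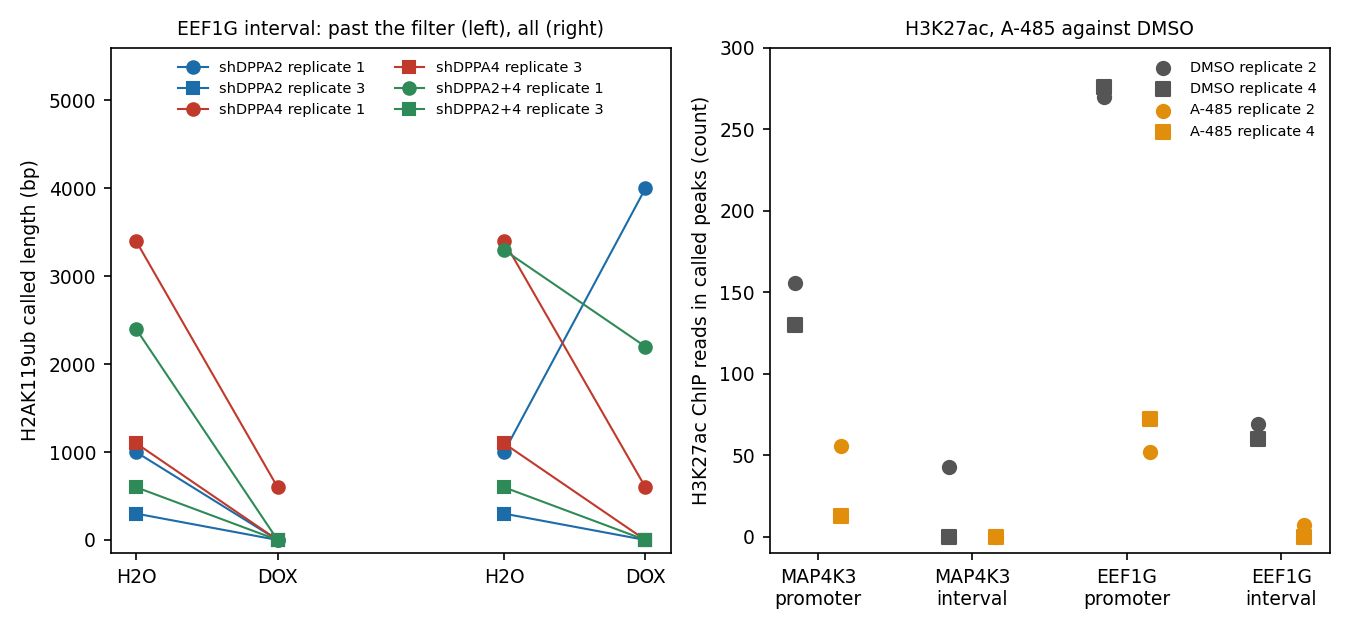
Left, H2AK119ub called length (bp) in the EEF1G interval for each line and replicate, H2O joined to DOX, with peaks past the filter in the left pair of columns and all deposited peaks in the right pair. Right, H3K27ac reads (count) past the filter at the promoter and interval of MAP4K3 and EEF1G, with DMSO in grey and A-485 in orange, circles for replicate 2 and squares for replicate 4. Past the filter all 6 H2AK119ub lines fall to 600 bp or to 0, and with all deposited peaks that of shDPPA2 replicate 1 rises to 4000 bp; H3K27ac at the EEF1G interval, not scaled for depth, is 60 or 69 reads with DMSO and 7 or 0 with A-485.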

How the data were processed

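Peak lists of 51 ChIP-Rx-seq libraries were used, and the 8 inputs through the input column of these lists only. Per the submitters' processing notes, Trim Galore 0.6.6 served for trimming, BWA 0.7.13 for alignment to hg38, and SAMtools 1.9, deepTools 3.5.0 and Picard 2.6.0 for later steps. The authors called peaks per library with EPIC2, against an input. In the lists deposited by the authors, raw counts of ChIP and of input reads are given per peak. Also deposited are the log2 fold of ChIP against input, scaled by library totals, and the caller's p-value and FDR. A score column deposited by the authors was not used. Mouse reference reads and a blacklist were not used here.

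Peaks were kept at a log2 fold over 1 with FDR below 0.05, 75.6 to 99.0% of each list. H3K4me3 reads were summed in regions merged over the 12 libraries, if each library had a peak and the mean was 10 reads or higher. For all marks, reads were also summed over peaks with their midpoint in a gene body extended by 10 kb. Each table was fitted whole with edgeR 4.0.16 (quasi-likelihood, TMM, R 4.3.3, limma 3.58.1), with p-values adjusted by Benjamini-Hochberg over all features. DESeq2 1.42.0 was an alternative. TMM centres each library on its bulk, which hides a global change. Scripts were tested on simulated data. Log2 CPM used a prior count of 2. Reads carry no molecular identifiers, and the fits estimate spread from the replicate libraries.

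The replicate number entered as a block, because the study prepared replicates as whole batches. Deviations of same-numbered H3K4me3 libraries from their group means correlated at 0.502, 0.411 and 0.509 in shDPPA2, shDPPA4 and shDPPA2+4. For H2AK119ub windows the values were 0.299, 0.201 and 0.331.

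The members and lists were chosen with earlier results of these data known. Named were the 2 members, genes in their windows, list members that passed the test, the MAP4K family and eEF1 subunits, the other regions called in shDPPA4 and the 5 regions most correlated with each member. Sequences came from the hg38 reference.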

Additional observations from a re-analysis of the deposited data

Results flagged for a closer look

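H3K27me3 was outside the comparisons of the members, because it was absent from nearly every library at both genes. A single peak of 100 bp, chr11:62559601-62559700, with 11 reads lay in the EEF1G window in shDPPA4 DOX replicate 1. No peak was called there in the H2O libraries, taken as controls, or in DOX replicate 3 of the same line, and reads outside called peaks are not counted in the lists. No group held 4 or more libraries, so no library was tested as an outlier within its group.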

How the results depend on the processing

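The shDPPA4 values, which chose the members, changed with the peaks counted and with the called length. The log2 difference of the MAP4K3 region was -2.91 past the filter, -1.01 with all deposited peaks, -1.02 with those and no replicate block, and -0.46 per called base. For EEF1G the -2.66 became -0.29, -0.28 and -0.30, and the -0.16 of the EEF1G window became -0.091 with all deposited peaks. Neither region was tested with a log2 fold above 2, since each then lacked a peak in some library. The pairing by replicate number moved member values little: with no replicate block the differences were -2.92 and -2.65. H3K27me3 gave the members no value to compare. All deposited peaks combined with no block, all deposited peaks in gene windows, reads in proportion to overlap and the interval in place of the window were chosen after seeing the data.

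Counts of called regions moved more than member calls. In shDPPA2 the 6 became 0 with DESeq2, 1 with all deposited peaks, 0 with those and no block, 20 with no filter on regions and 0 with no replicate block. In shDPPA4 the 8 became 0, 0, 0, 42 and 1 under the same settings, 0 per called base and 15 with a log2 fold above 2; in DESeq2 both members had no adjusted p there, so its 0 is no count of lost calls. In shDPPA2+4 the 0 became 1 with all deposited peaks, 1 per called base, 15 with no filter and 1 with a log2 fold above 2. For H3K4me3 windows, shDPPA2 gave 9 by overlap and 2 with a log2 fold above 2, shDPPA4 gave 13 with DESeq2, 2 by overlap and 1 in proportion to overlap, and shDPPA2+4 gave 10, 0 and 0. For H2AK119ub windows, shDPPA2 gave 751 with DESeq2, 0 with all deposited peaks, 1 with no replicate block and 1 with a log2 fold above 2, and DESeq2 gave 172 in shDPPA4 and 66 in shDPPA2+4. For H3K27ac it gave 193. The cause was not tested.

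Leaving out 1 library gave ranges, in the order shDPPA2, shDPPA4 and shDPPA2+4. The MAP4K3 region ranged over -0.24 to 0.05, -3.06 to -2.75 and -0.94 to -0.19, and the EEF1G region over -0.27 to -0.17, -3.10 to -2.30 and -0.56 to -0.07. The H3K4me3 windows ranged over -0.09 to -0.06, -0.15 to -0.060 and -0.05 to 0.06 at MAP4K3, and -0.12 to -0.04, -0.20 to -0.13 and -0.19 to -0.04 at EEF1G. H2AK119ub windows ranged over -9.13 to -0.67, -9.40 to -0.69 and -1.50 to 0.17 at MAP4K3, and -1.64 to 0.60, -1.65 to -0.89 and -0.42 to -0.15 at EEF1G. Called regions ranged over 0 to 48, 2 to 75 and 0 to 283, the highest without shDPPA2+4 DOX replicate 1 in each line. Called H3K4me3 windows ranged over 1 to 20, 5 to 22 and 4 to 11. Called H2AK119ub windows ranged over 0 to 944, the latter without shDPPA2 DOX replicate 1, and over 0 to 3 and 0 to 0. With A-485, H3K27ac ranged over -1.80 to -0.12 at MAP4K3 and -0.79 to 0.28 at EEF1G, and H2AK119ub over -0.40 to 1.04 at EEF1G.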
